A study of Mus musculus with 6 samples.

Results

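Cell cycle and DNA replication genes were followed as a set of 47 genes, taken by symbol, in the inguinal fat of mice, which lies beneath the skin of the groin. Every non-control probe of the array that carries 1 of these symbols was used, which gave 63 probes out of 55681, and 47 gene names out of 34844. Of the 47 genes 15 act in DNA replication, 22 in mitosis and 10 regulate the G1 phase, the stretch before replication starts. Testing needed a signal well above background on 3 arrays or more and no outlier flag, which held for 59 member probes of 44 genes and for 38460 probes in all.

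Male C57BL/6J mice aged 2 months entered the study, and RNA of their inguinal fat was measured on 1-colour Agilent arrays, with 3 arrays in each of 2 groups. For 1 month, mice of the group titled DIO_CR_WR were fed a high fat diet, in which fat gave 60% of the energy. Calorie restriction then brought them, in about 3 weeks, to the weight of chow-fed mice as old as they were, and in the last period they ate the high fat diet freely and regained weight. Mice of the group titled DIO ate chow until that last period and then the same high fat diet. The groups follow the sample titles, whereas the protocol calls the weight-regain mice DIO and the others CTR. The labelled ages are 9, 10 and 11 months for DIO_CR_WR and 6, 7 and 8 months for DIO, although the protocol calls the groups even-aged. Listed by accession, the age labels climb in steps of 1 month, so fits with age rest on values that may not be true ages. Whether a sample is 1 mouse or a pool is not stated, so p-values measure only the spread between these samples, which may be technical.

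In the cell cycle, D-type cyclins with Cdk4 and Cdk6, and E-type cyclins with Cdk2, release E2F factors from the retinoblastoma protein, and E2F factors then switch on replication genes. The Mcm helicase is loaded on DNA by Cdc6 and started by Cdc45 and the GINS complex, while Rrm1, Rrm2 and Tyms supply nucleotides and Pcna clamps the polymerase to its template. Mitotic genes follow later under B-Myb and Foxm1, with cyclin B and Cdk1 as the motor of entry into mitosis. Mature fat cells do not divide, so signal of mitotic genes in fat is usually read from progenitors, endothelial cells and immune cells. In bulk tissue, fewer dividing cells and less RNA per cell cannot be told apart.

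Signals are given as a percentage of the 75th percentile of the same array, and levels of different probes are not compared. The 75th percentile of the raw signal was 6050 to 7126 on the DIO_CR_WR arrays and 4605 to 4991 on the DIO arrays. Between 51.6% and 65.7% of all probes were well above background on the DIO_CR_WR arrays, against 68.2% to 79.2% on the DIO arrays. Of the 63 member probes, 52 to 58 were above background on the DIO_CR_WR arrays and 60 on each DIO array. Slide 1 carried all 3 DIO_CR_WR arrays and DIO replicate 1, and slide 2 carried the other DIO arrays, so slide and group overlap in part. The fat cell markers Adipoq, Plin1, Cidec, Lep, Fabp4, Lipe and Pnpla2, 7 of 7, were above background on all 6 arrays.

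No cell cycle or replication probe differed between DIO_CR_WR and DIO fat after correction over all probes. Limma's moderated test with Benjamini-Hochberg adjustment called 0 of 59 member probes, as it called 0% of all probes. The smallest adjusted p among members in this test was 0.119, for a Tpx2 probe not above background on any DIO_CR_WR array. Next was 0.132, for a Cdk1 probe. With arrays scaled to the E1A spike-in probes the test also called 0 member probes, against 0.0156% of all probes. At an unadjusted p under 0.05 there were 3 member probes with higher signal in DIO_CR_WR (5.08%, against 5.34% of all probes) and 4 with lower signal (6.78%, against 20.8% of all probes). The arrays of the groups did not overlap for 4 member probes on the higher side (6.78%, against 7.29% of all probes) and for 7 on the lower side (11.9%, against 25.6% of all probes). Of the 59 log2 fold changes, DIO_CR_WR over DIO, 30 were above 0 and 29 below. They lay between −0.53 and 1.19, leaving out 1 Tpx2 and 1 Ccne2 probe that were not above background on any DIO_CR_WR array and were tested through their DIO arrays alone. These probes are 2 of the 4 with lower signal and 2 of the 7 without overlap on the lower side.

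The sign of many of these fold changes depended on how arrays were scaled. Scaling to the 75th percentile put the median log2 fold change of all probes at −0.19, and scaling to the E1A spike-in probes put it at 0.31. By unadjusted p under 0.05, 2055 probes of all were higher and 7986 lower with the first scaling, and 7985 were higher and 1131 lower with the second, under which 21 member probes rather than 7 passed. Over 5 scalings, 29 member probes kept a positive fold change, 4 kept a negative one, and 26 had a sign that differed between scalings. The Tpx2 and Ccne2 probes not above background in DIO_CR_WR are among the 4. Quantile normalization, alone or after normexp background correction, could turn either sign. Median and spike-in scaling each raised the log2 fold changes of all probes by 1 fixed amount. There a positive fold change cannot turn and a negative one can, so no direction is read from these counts. Group shifts are therefore given relative to the median of all probes. Relative to it, 45 of the 59 member probes had a higher fold change. The plot of fold changes by member shows the spread around both marks.

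**Figure D1:**
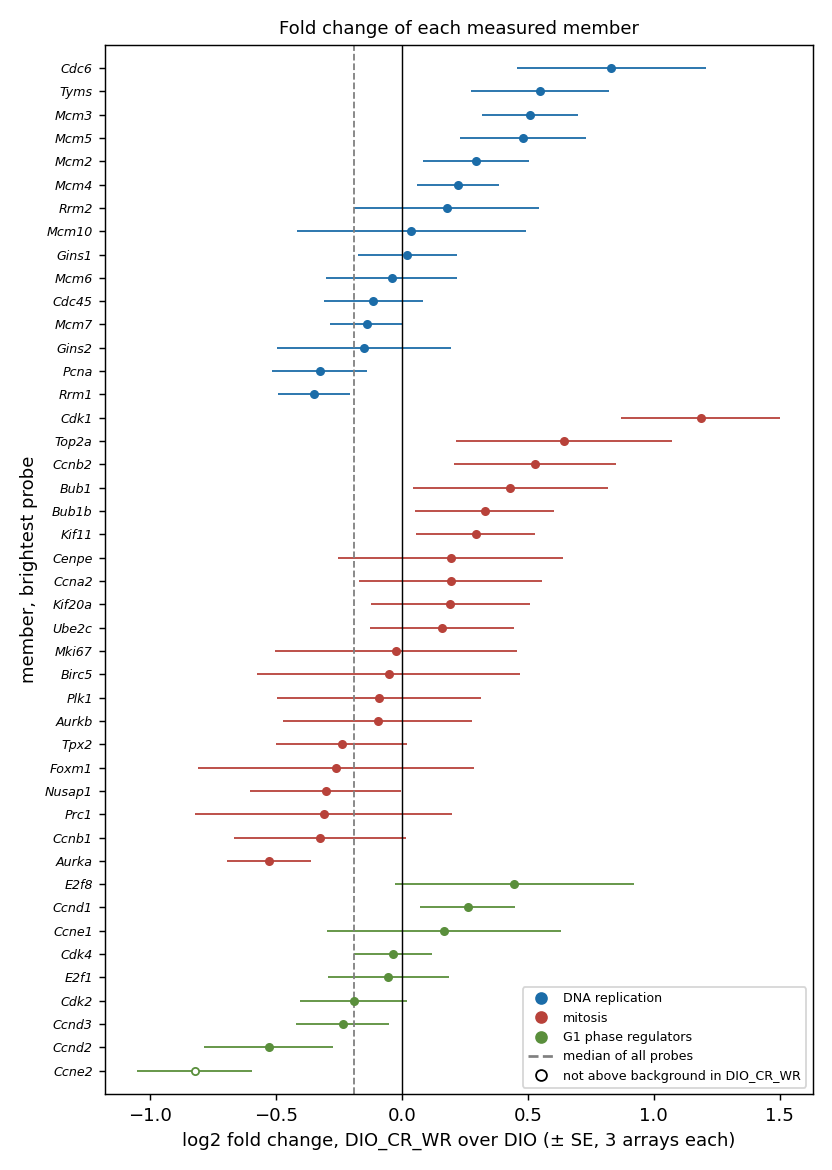
Log2 fold change (DIO_CR_WR over DIO, x axis) of the brightest tested probe of 44 members (y axis), by role; points are limma estimates, bars are ± SE with 3 arrays in each group, and the dashed line is the median of all probes at −0.19. Cdk1 has the highest value at 1.19, and the open point, Ccne2, marks a probe not above background on any DIO_CR_WR array, for which the text gives no fold; many of the signs near 0 turn with spike-in scaling.

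The members shared a pattern among the arrays of each group. DIO_CR_WR replicate 2 was the highest of its group for 48 of 59 member probes (81.4%), against 32.6% of all tested probes. DIO replicate 3 was the highest of its group for 47 (79.7%), against 43.7% of all tested probes. Both held together for 40 member probes (67.8%), against 17.4% of all tested probes. These shares describe 6 arrays, and probes of 1 array are not independent of each other.

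This shared pattern was widest in the mitosis members. Among their 29 probes, DIO_CR_WR replicate 2 and DIO replicate 3 were each highest in 25 (86.2%). Within DIO_CR_WR the highest array stood a median 1.77-fold over the lowest for mitosis probes, 1.14-fold for replication probes and 1.28-fold for G1 probes, against 1.33-fold for all probes. Within DIO the median ranges were 2.02-fold for mitosis, 1.47-fold for replication and 1.53-fold for G1 probes, against 1.47-fold for all probes. Mki67, the antigen found in cycling cells, shows it well: its brightest probe had 53.2%, 90.7% and 60.5% in DIO_CR_WR replicates 1 to 3, against 37.6%, 59.9% and 135% in DIO replicates 1 to 3. The highest and the lowest of the 6 values were both DIO arrays, and the groups overlapped (log2 fold change −0.02 ± 0.48 SE, adjusted p = 0.981 in limma's test, sign different between scalings). The second Mki67 probe had 37.3%, 59.6% and 39.1% in DIO_CR_WR against 29.2%, 36.8% and 53.5% in DIO, and its groups overlapped too. On that probe DIO_CR_WR replicate 2 was highest. Its log2 fold change of 0.20 ± 0.30 SE was 0.19 with quantile normalization and 0.03 with normexp correction before it.

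**Figure D2:**
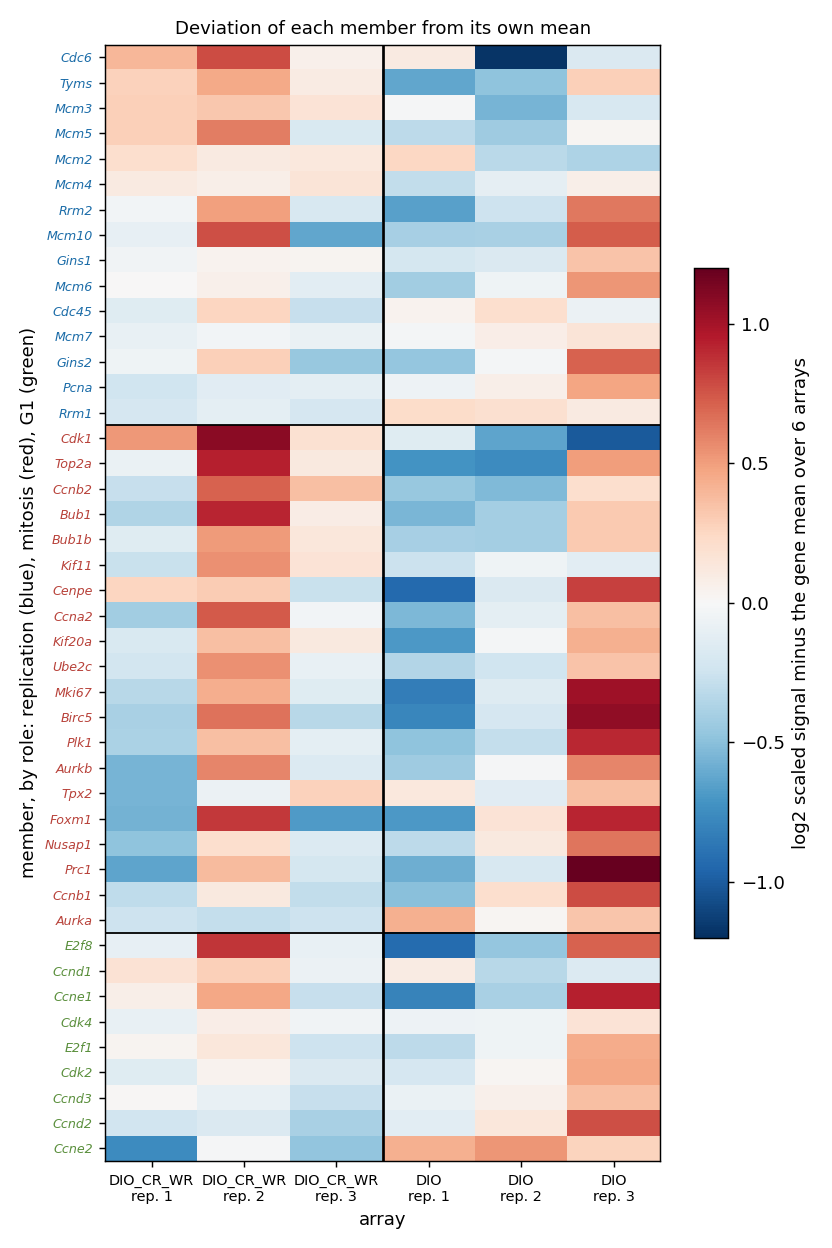
Deviation of each of 44 members (y axis, brightest tested probe, grouped by role) from its own mean over the 6 arrays (x axis), in log2 units, with colours limited to ± 1.2. Red columns at DIO_CR_WR replicate 2 and DIO replicate 3 run through most mitosis members, and DIO replicate 1 is blue for most of them.

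A score for each role on each array, the median deviation of its probes from their own means minus that of all probes, sums this up on the log2 scale. The mitosis score was −0.18, 0.61 and −0.02 on DIO_CR_WR replicates 1 to 3, and −0.49, −0.32 and 0.28 on DIO replicates 1 to 3. Replication probes scored 0.13, 0.39 and −0.05 on the DIO_CR_WR arrays, against −0.20, −0.33 and −0.09 on the DIO arrays. For G1 regulators the scores were 0.03, 0.18 and −0.12 on DIO_CR_WR arrays and −0.11, −0.20 and 0.17 on DIO arrays. The replication scores of the 2 groups averaged 0.15 ± 0.22 in DIO_CR_WR and −0.20 ± 0.12 in DIO (SD, n = 3 each) and were apart by a narrow margin. With 1 probe per gene they were 0.09, 0.36 and −0.05 in DIO_CR_WR against −0.20, −0.32 and −0.04 in DIO, and overlapped. Those of mitosis overlapped (0.13 ± 0.42 in DIO_CR_WR and −0.18 ± 0.40 in DIO), and so did those of G1 (0.03 ± 0.15 in DIO_CR_WR and −0.05 ± 0.19 in DIO).

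**Figure D3:**
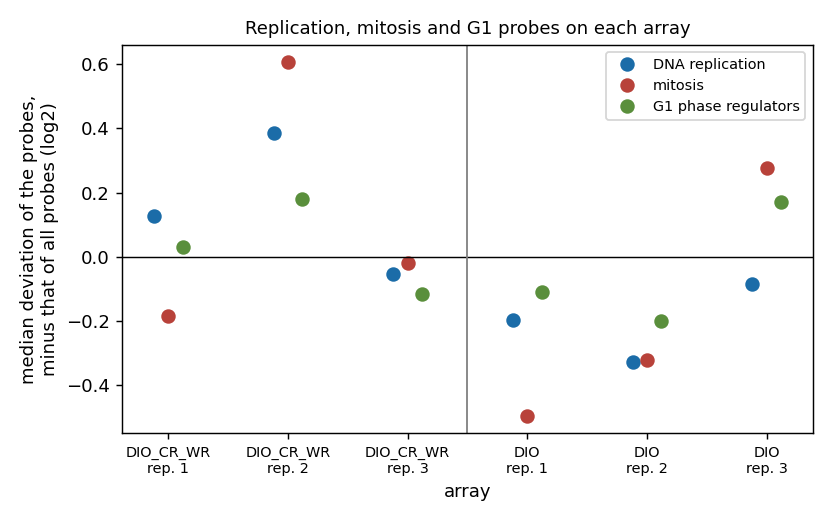
Score of the replication (17), mitosis (29) and G1 (13) probes on each of the 6 arrays (x axis), as the median log2 deviation of the probes from their own means minus that of all probes (y axis). The mitosis points range from −0.49 on DIO replicate 1 to 0.61 on DIO_CR_WR replicate 2, and the lowest replication point of DIO_CR_WR, −0.05, lies just above the highest of DIO, −0.09, an order that 1 probe per gene turns round.

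Promoter letters are a feature that the choice of members did not use. Promoters are shown for Cdk1, Ccnb2, Top2a and Mki67 among mitosis members and for Mcm3 and Cdc6 among replication members, because these genes carry the pattern or have high fold changes in their role. The windows, from RefSeq on build GRCm38.p6, run from 250 bases before to 50 bases after the gene's start, 5′ to 3′ along the gene. Capitals mark the CHR element TTTGAA, the CCAAT box and the E2F words TTTCCCGC, TTTGGCGC and TTTCGCGC on either strand, so that a match on the other strand appears as the reverse complement.
Cdk1, chr10:69352863-69353162, minus strand: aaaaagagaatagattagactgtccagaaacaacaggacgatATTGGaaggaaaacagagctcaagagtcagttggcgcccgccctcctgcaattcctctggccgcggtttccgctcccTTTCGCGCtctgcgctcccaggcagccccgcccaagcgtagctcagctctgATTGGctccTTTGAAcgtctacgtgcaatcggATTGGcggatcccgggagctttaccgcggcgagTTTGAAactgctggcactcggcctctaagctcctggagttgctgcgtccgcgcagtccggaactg
Ccnb2, chr9:70421505-70421804, minus strand: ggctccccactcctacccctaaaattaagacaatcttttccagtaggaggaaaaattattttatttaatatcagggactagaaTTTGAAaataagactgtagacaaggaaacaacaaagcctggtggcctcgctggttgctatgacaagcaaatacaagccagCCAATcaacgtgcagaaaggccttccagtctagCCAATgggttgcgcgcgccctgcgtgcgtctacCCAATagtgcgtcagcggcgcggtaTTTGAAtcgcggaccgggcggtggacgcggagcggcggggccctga
Top2a, chr11:99024140-99024439, minus strand: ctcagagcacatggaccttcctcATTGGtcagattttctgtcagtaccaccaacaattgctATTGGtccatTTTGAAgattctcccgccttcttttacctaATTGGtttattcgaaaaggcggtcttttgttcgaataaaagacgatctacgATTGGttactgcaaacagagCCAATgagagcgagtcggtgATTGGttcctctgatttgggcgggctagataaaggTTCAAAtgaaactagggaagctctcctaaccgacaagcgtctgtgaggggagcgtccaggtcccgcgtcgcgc
Mki67, chr7:135716330-135716629, minus strand: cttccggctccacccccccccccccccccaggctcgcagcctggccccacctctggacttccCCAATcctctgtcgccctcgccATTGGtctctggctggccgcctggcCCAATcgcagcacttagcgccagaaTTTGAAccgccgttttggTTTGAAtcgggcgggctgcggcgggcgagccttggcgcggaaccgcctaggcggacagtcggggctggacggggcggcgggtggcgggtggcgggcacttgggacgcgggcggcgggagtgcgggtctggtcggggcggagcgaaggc
Mcm3, chr1:20820263-20820562, minus strand: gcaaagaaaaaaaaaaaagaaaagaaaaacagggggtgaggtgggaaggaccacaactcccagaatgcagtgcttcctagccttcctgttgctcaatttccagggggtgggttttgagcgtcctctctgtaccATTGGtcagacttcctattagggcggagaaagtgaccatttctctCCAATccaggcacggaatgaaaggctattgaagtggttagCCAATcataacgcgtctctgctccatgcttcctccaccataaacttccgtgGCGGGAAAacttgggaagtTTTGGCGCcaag
Cdc6, chr11:98907901-98908200, plus strand: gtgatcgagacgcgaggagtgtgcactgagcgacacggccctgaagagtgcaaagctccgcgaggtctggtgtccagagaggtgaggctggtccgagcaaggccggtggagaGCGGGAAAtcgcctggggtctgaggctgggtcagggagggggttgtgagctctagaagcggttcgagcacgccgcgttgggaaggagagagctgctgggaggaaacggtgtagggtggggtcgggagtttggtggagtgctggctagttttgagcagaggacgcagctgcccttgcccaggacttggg

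Of the 36 members with a promoter in the RefSeq table, 17 are mitosis, 12 replication and 7 G1 genes. The CHR letters, known as a site of the MuvB complexes in late cell cycle genes, were in 12 of 17 mitosis promoters (70.6%), 2 of 12 replication promoters (16.7%) and 1 of 7 G1 promoters (14.3%), against 20.2% of 27025 genes in the table. CCAAT boxes, bound by NF-Y, were in 15 mitosis (88.2%), 10 replication (83.3%) and 3 G1 promoters (42.9%), against 41.1% of all genes. An E2F word was in 1 mitosis promoter (5.88%), 5 replication promoters (41.7%) and 1 G1 promoter (14.3%), against 2.12% of all genes. Cdk1, in the first line, was the mitosis gene with an E2F word beside its CHR and CCAAT letters. Matches of different motifs overlapped in the Mcm7 promoter alone among these members. A match of letters describes the window and is not shown to be a bound site.

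Replication members had a higher median shift than mitosis members with all probes and arrays, and a lower one in some other settings. The median log2 fold change of their 17 probes was 0.18, a shift of 0.37 over all probes, and slide as a block gave 0.47, against 0.68 for mitosis probes. That block leaves DIO replicate 1 as the only DIO array compared within slide 1. Leaving out 1 array gave shifts between 0.18 without DIO replicate 1 and 0.50 without DIO_CR_WR replicate 3. By unadjusted p under 0.05, 2 probes had higher signal (11.8%, against 5.34% of all probes) and 1 had lower signal (5.88%, against 20.8%). The 2 are probes of Mcm3 that overlap by 43 bases, and with the brightest probe of each gene 1 of 15 genes was higher. Of the 17 probes, 15 had a fold change above the median of all probes.

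Licensing and helicase genes held most of the higher values. Mcm3, a subunit of the Mcm2 to Mcm7 helicase, had 90.9%, 93.5% and 83.7% on the DIO_CR_WR arrays against 74.0%, 50.7% and 65.6% on the DIO arrays for its brighter probe. All 3 DIO_CR_WR values were above all 3 DIO values (log2 fold change 0.51 ± 0.19 SE, adjusted p = 0.166 in limma's test). The log2 fold change was 0.50 with quantile normalization and 0.57 with normexp correction before it. Mcm2 had 73.5%, 68.8% and 69.8% in DIO_CR_WR against 76.0%, 51.0% and 49.3% in DIO, where DIO replicate 1 was as high as the DIO_CR_WR arrays. Its log2 fold change of 0.30 ± 0.21 SE was −0.11 with slide as a block. Cdc6, which loads the helicase, had 15.6%, 20.3% and 12.3% in DIO_CR_WR against 12.7%, 5.20% and 10.4% in DIO, with groups that overlap (log2 fold change 0.83 ± 0.37 SE, adjusted p = 0.215 in limma's test, and 0.31 with slide as a block).

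The other helicase subunits had log2 fold changes below that of Mcm3. Mcm4 had 103%, 101% and 106% in DIO_CR_WR against 77.8%, 88.9% and 100% in DIO, which did not overlap by a narrow margin (log2 fold change 0.22 ± 0.16 SE). Log2 fold changes were 0.48 for Mcm5, −0.04 for Mcm6 and −0.14 for Mcm7, of which the last 2 turned positive with spike-in scaling. Mcm7 had 236%, 246% and 238% in DIO_CR_WR against 248%, 266% and 280% in DIO, lower without overlap, also by a narrow margin. Around the helicase, the initiation factors Mcm10, Gins1, Gins2 and Cdc45 had log2 fold changes of 0.04, 0.02, −0.15 and −0.11, each smaller than its SE. Gins2 had 60.4%, 76.5% and 45.6% in DIO_CR_WR against 45.6%, 61.8% and 102% in DIO, following the pattern of high replicates.

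Nucleotide supply genes had fold changes on both sides of 0. Rrm1, the large subunit of ribonucleotide reductase, had 110%, 117% and 110% in DIO_CR_WR against 147%, 145% and 136% in DIO. Its groups did not overlap (log2 fold change −0.35 ± 0.14 SE, adjusted p = 0.187 in limma's test, −0.40 with slide as a block), but spike-in scaling gave 0.15. Rrm2, the small subunit made in S phase, had 27.3%, 39.3% and 24.4% in DIO_CR_WR against 17.7%, 23.6% and 43.3% in DIO, with the high values again on DIO_CR_WR replicate 2 and DIO replicate 3 (log2 fold change 0.18 ± 0.37 SE). Tyms, which makes thymidylate, was dim at 2.55%, 2.89% and 2.25% in DIO_CR_WR and 1.37%, 1.51% and 2.56% in DIO, and was above background on 2 of 3 DIO_CR_WR arrays (log2 fold change 0.55 ± 0.27 SE, adjusted p = 0.247 in limma's test). Pcna had 472%, 506% and 513% in DIO_CR_WR against 534%, 584% and 773% in DIO, without overlap, with a log2 fold change of −0.33 ± 0.19 SE that was 0.17 with spike-in scaling.

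Mitosis members had a median log2 fold change of 0.07 over 29 probes, a shift of 0.26 over all probes. This shift rested on single arrays: it was 0.59 without DIO replicate 3, 0.04 without DIO_CR_WR replicate 2 and 0.03 without DIO replicate 1. Slide as a block gave 0.68, and the labelled age as a covariate gave −0.37. Of the 29 probes, 1 had higher signal (3.45%, against 5.34% of all probes) and 2 had lower signal (6.90%, against 20.8%) by unadjusted p under 0.05, and 1 of the 2 is the dim Tpx2 probe.

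Cyclins and the kinase they activate did not share 1 direction. Cdk1, the mitotic kinase, had the highest log2 fold change of all members with its brightest probe, at 30.9%, 45.5% and 24.4% in DIO_CR_WR against 19.5%, 13.9% and 10.7% in DIO. The groups did not overlap (log2 fold change 1.19 ± 0.32 SE, adjusted p = 0.132 in limma's test). The log2 fold change was 1.26 with quantile normalization, 1.39 with normexp correction before it and 0.74 with slide as a block. It passed without DIO replicate 1 (1.41, adjusted p = 0.0448 in limma's test, against 0.0448 to 0.587 over all alternatives), where the groups lay on different slides. Ccnb2, cyclin B2, had 16.3%, 32.4% and 25.4% in DIO_CR_WR against 14.4%, 13.7% and 22.7% in DIO, with overlap (log2 fold change 0.53 ± 0.32 SE). Ccnb1, cyclin B1, had 13.4%, 18.0% and 13.5% in DIO_CR_WR against 11.7%, 19.1% and 28.5% in DIO for its brightest probe (log2 fold change −0.32 ± 0.34 SE, and 0.18 with spike-in scaling). Ccna2, cyclin A2, had 12.7%, 28.3% and 16.6% in DIO_CR_WR and 11.7%, 15.7% and 21.8% in DIO, again highest on DIO_CR_WR replicate 2 and DIO replicate 3.

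Among kinases of the spindle, Aurka stood lowest. Aurka, the kinase of spindle poles, had 10.8%, 10.5% and 10.7% in DIO_CR_WR against 17.2%, 13.0% and 16.1% in DIO. It was lower on every DIO_CR_WR array and did not follow the pattern of high replicates (log2 fold change −0.53 ± 0.17 SE, adjusted p = 0.142 in limma's test, −0.69 with slide as a block), and spike-in scaling brought it to −0.03. Aurkb, the kinase of the chromosomal passenger complex, was above background on 2 of 3 DIO_CR_WR arrays, with a log2 fold change of −0.10 ± 0.38 SE. Plk1, which drives mitotic entry and exit, had 5.49%, 9.17% and 6.57% in DIO_CR_WR against 5.10%, 5.85% and 13.4% in DIO. Plk1 and Bub1 were each above background on 2 of 3 DIO_CR_WR arrays. Checkpoint kinases Bub1 and Bub1b had log2 fold changes of 0.43 ± 0.39 and 0.33 ± 0.28 SE. These were 0.60 and 0.44 with quantile normalization, and 0.39 and 0.37 with normexp correction before it.

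Several chromosome and spindle proteins were again highest on DIO_CR_WR replicate 2 and DIO replicate 3. Top2a, the topoisomerase that untangles chromosomes, had 8.33%, 16.8% and 9.54% in DIO_CR_WR against 5.37%, 5.20% and 12.5% in DIO (log2 fold change 0.65 ± 0.43 SE, adjusted p = 0.365 in limma's test, and 1.04 with slide as a block). Prc1, which bundles the central spindle, had 11.0%, 22.1% and 14.7% in DIO_CR_WR against 11.4%, 14.9% and 40.3% in DIO. With their brightest probes, DIO replicate 3 exceeded DIO replicate 1 by 3.54-fold in Prc1, by 3.60-fold in Mki67 and by 3.59-fold in Birc5 (survivin). These were picked as the largest DIO ranges of the member probes. The median DIO range was 2.02-fold over mitosis probes and 1.47-fold over all probes, where the largest was 287-fold. The second Mki67 probe had a DIO range of 1.83-fold and the third Birc5 probe 1.75-fold. Motor proteins Kif11, Kif20a and Cenpe, the spindle proteins Tpx2 and Nusap1, and the ubiquitin enzyme Ube2c had log2 fold changes between −0.30 and 0.29 with their brightest probes. Kif11 was highest in DIO on replicate 2, and Tpx2 was highest in DIO_CR_WR on replicate 3. The Kif11 probe was above background on 2 of 3 DIO_CR_WR arrays.

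Members not tested are given as values. Cdk6 was above background on 0 of 6 arrays, and so was the kinetochore protein Cenpf. Cdc20, the activator of the anaphase-promoting complex, had an outlier flag on DIO_CR_WR replicate 1, with 26.3% and 23.9% on the other DIO_CR_WR arrays and 20.7%, 33.3% and 37.3% on the DIO arrays. A second Foxm1 probe was above background on 1 DIO_CR_WR array alone. The tested probe of Foxm1, the mitotic transcription factor, had 6.30%, 16.8% and 5.84% in DIO_CR_WR against 5.78%, 10.5% and 17.6% in DIO (log2 fold change −0.26 ± 0.55 SE).

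G1 regulators had a median log2 fold change of −0.05 over 13 probes, a shift of 0.14, with 0 probes higher and 1 lower by unadjusted p (against 5.34% and 20.8% of all probes). The 1 is Ccne2, which was tested through its DIO arrays alone. Their shift ran from 0.06 without DIO_CR_WR replicate 2 to 0.19 without DIO replicate 3. Ccnd1, cyclin D1, had 133%, 144% and 113% in DIO_CR_WR against 126%, 93.9% and 106% in DIO, with overlap (log2 fold change 0.26 ± 0.19 SE, and 0.03 with slide as a block). Ccnd2, cyclin D2, had a fold change of the opposite sign, with 674%, 703% and 604% in DIO_CR_WR against 727%, 870% and 1355% in DIO. Its groups did not overlap (log2 fold change −0.53 ± 0.26 SE, adjusted p = 0.238 in limma's test), but the value was −0.27 without DIO replicate 3 and −0.03 with spike-in scaling. Ccnd3, cyclin D3, had 463%, 431% and 377% in DIO_CR_WR against 434%, 479% and 589% in DIO for its brighter probe (log2 fold change −0.23 ± 0.18 SE, 0.27 with spike-in scaling).

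E-type cyclins and E2F factors closed the G1 group. Ccne1, cyclin E1, had 31.2%, 40.9% and 24.4% in DIO_CR_WR against 17.0%, 22.7% and 56.7% in DIO for its brighter probe, a 3.33-fold range within DIO (log2 fold change 0.17 ± 0.46 SE). Ccne2, cyclin E2, had 1.03%, 1.72% and 1.25% in DIO_CR_WR, not well above background on any of the 3 arrays, against 2.33%, 2.50% and 2.09% in DIO. No fold is given for Ccne2, because the lowest signal called above background was 1.50% to 5.17% on the DIO_CR_WR arrays and 0.635% to 1.15% on the DIO arrays. E2f8, an atypical E2F repressor, had 7.51%, 14.5% and 7.54% in DIO_CR_WR against 4.24%, 5.83% and 13.1% in DIO (log2 fold change 0.45 ± 0.47 SE, and 1.14 with slide as a block). E2f1, Cdk2 and the 3 Cdk4 probes had log2 fold changes between −0.28 and −0.03, and each of them was positive with spike-in scaling.

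For 11 members more than 1 probe was tested, and probes of 1 gene did not always tell the same story. The 2 Mcm3 probes overlap by 43 bases near chr1:20793119-20793195 (mm9, minus strand) and differ there at 1 base. A 30-base stretch of each is shown with that base in capitals, written A14G from the 5′ end of the stretch, first for the probe of the RefSeq transcript and then for the probe of a cDNA clone.
Mcm3 probe A_55_P1953087: aagctttctttgcAattagactagtatgta
Mcm3 probe A_51_P324934: aagctttctttgcGattagactagtatgta

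With the probe of the cDNA clone, Mcm3 had 67.3%, 61.8% and 60.4% in DIO_CR_WR against 48.6%, 23.5% and 34.1% in DIO. Both probes had groups that did not overlap, at log2 fold changes of 0.90 ± 0.28 and 0.51 ± 0.19 SE, and they were the 2 replication probes higher at an unadjusted p under 0.05. The values were 0.38 and 0.27 with slide as a block, where DIO replicate 1, the highest DIO array for both, is the only DIO array compared.

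Cdk1 was less even. Its 2 brighter probes overlap by 41 bases near chr10:68801053-68801131 (mm9, minus strand), yet they ranked DIO replicate 3 differently: it was the lowest of 6 arrays at 10.7% for the brightest probe and the highest DIO array at 17.4% for the other. The other probe had 16.6%, 26.6% and 14.96% in DIO_CR_WR against 11.1% and 8.19% in DIO replicates 1 and 2, so that the groups overlapped (log2 fold change 0.69 ± 0.35 SE). Without DIO replicate 3 both probes came to a log2 fold change of 0.98 and 0.97. The third Cdk1 probe, at chr10:68799513-68799572, was above background on 2 of 3 DIO_CR_WR arrays and had the opposite sign (log2 fold change −0.42 ± 0.22 SE), which spike-in scaling turned to 0.08.

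Tpx2, which activates Aurka on the spindle, had a dim second probe. That probe, made to another transcript record, had 1.16%, 0.974% and 0.957% in DIO_CR_WR, not well above background on any array, against 2.42%, 2.54% and 1.92% in DIO. Its adjusted p of 0.119 in limma's test sets DIO signals against DIO_CR_WR values under a higher detection floor, so nothing is read from it. No fold is given, for the reason stated for Ccne2. The brighter Tpx2 probe had 11.9%, 16.8% and 21.3% in DIO_CR_WR against 19.3%, 16.1% and 22.6% in DIO, with overlap. For Birc5, 2 probes had log2 fold changes of −0.05 and the third 0.48, and for Ccnb1 the 3 probes spanned −0.32 to 0.26, with SEs of 0.31 to 0.52 and of 0.34 to 0.46. The second Ccne1 probe had 12.2%, 20.0% and 10.9% in DIO_CR_WR against 7.84%, 5.64% and 11.9% in DIO (log2 fold change 0.78 ± 0.35 SE), and the second Cdc6 probe came to 0.39 ± 0.33 SE. That Cdc6 probe was above background on 2 of 3 DIO_CR_WR arrays.

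**Figure D4:**
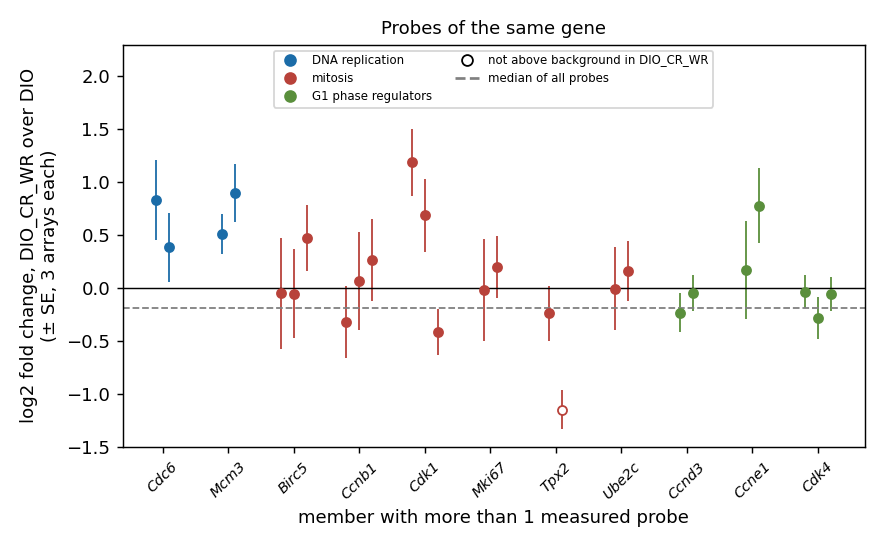
Log2 fold change (y axis, DIO_CR_WR over DIO, limma estimate ± SE, 3 arrays in each group) of every tested probe of the 11 members with more than 1 (x axis), coloured by role. The Cdk1 probes range from −0.42 to 1.19, both Mcm3 probes lie above 0, and the open Tpx2 point is a probe not above background on any DIO_CR_WR array.

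Bub1 shows how large the spread between spots was, since its probe is printed on 10 spots of each array, of which 9 were used on DIO_CR_WR replicate 1 and DIO replicate 3. The SD of the log2 signal over spots was 0.10 to 0.26 on the DIO_CR_WR arrays and 0.10 to 0.19 on the DIO arrays. Between the arrays of a group the SD of the spot means was larger, 0.65 in DIO_CR_WR and 0.46 in DIO. The array values were 3.12%, 7.57% and 4.26% in DIO_CR_WR against 2.73%, 3.01% and 4.98% in DIO. Bub1 was above background on 2 of 3 DIO_CR_WR arrays. Its value on DIO_CR_WR replicate 1 was under 5.17%, the lowest signal called above background on that array. On DIO_CR_WR replicate 2 the lowest spot, at 6.31%, was above the highest spot of each other array, the next being 5.58% on DIO replicate 3.

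Replication and mitosis members were then set against each other. The median log2 fold change of replication probes exceeded that of mitosis probes by 0.11, and both medians were above that of all probes in each of the 5 scalings. Percentile, median and spike-in scaling give equal shifts by construction, since each subtracts 1 value per array. Quantile normalization gave shifts of 0.27 for replication and 0.22 for mitosis, and with normexp background correction it gave 0.25 and 0.14. The order of replication above mitosis did not hold in every setting: the difference was −0.21 with slide as a block, −0.03 with the brightest probe of each gene, −0.11 without DIO replicate 3 and −0.12 with probes above background on all 6 arrays. On single arrays, the replication score minus the mitosis score was 0.31, −0.22 and −0.03 on DIO_CR_WR replicates 1 to 3, against 0.30, −0.01 and −0.36 on DIO replicates 1 to 3. Both groups thus had arrays on each side of 0, and no difference between replication and mitosis members stood out from the spread between arrays.

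Further genes of the pathway came from lists of other replication and mitosis genes. Among 48 other replication genes tested, 3 had higher and 1 had lower signal by unadjusted p under 0.05. Of all probes 5.34% were higher and 20.8% lower by that measure. After adjustment in limma's test 0 of the 48 genes passed. With the brightest probe of each gene, their median shift was 0.10, or 0.14 with slide as a block. Replication members measured in that way had a shift of 0.23, or 0.40 with slide as a block. Their score was 0.08, 0.20 and −0.05 on the DIO_CR_WR arrays against −0.14, −0.22 and 0.14 on the DIO arrays, and the groups overlapped. Pole2, a subunit of DNA polymerase epsilon, had 14.9%, 16.0% and 15.1% in DIO_CR_WR against 8.97%, 6.76% and 8.19% in DIO, without overlap (log2 fold change 0.95 ± 0.17 SE, adjusted p = 0.119 in limma's test, 0.77 with slide as a block). Timeless, a fork protection factor, had 0.65 ± 0.21 SE as its log2 fold change, and Rfc4 of the clamp loader had −0.36 ± 0.14 SE, which was 0.14 with spike-in scaling.

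Among 47 other mitosis genes tested, 1 had higher and 0 had lower signal by unadjusted p under 0.05. Of all probes 5.34% were higher and 20.8% lower. A median shift of 0.30 became 0.66 with slide as a block. Their score was 0.02, 0.42 and 0.06 on the DIO_CR_WR arrays against −0.48, −0.31 and 0.23 on the DIO arrays, with DIO_CR_WR replicate 2 and DIO replicate 3 again high. Aspm, a protein of spindle poles, had 3.89%, 5.83% and 4.51% in DIO_CR_WR against 3.11%, 3.24% and 3.04% in DIO, without overlap (log2 fold change 0.58 ± 0.19 SE, adjusted p = 0.147 in limma's test). Cdc25b, a phosphatase that activates Cdk1, had 0.49 ± 0.24 SE, Spc24 of the kinetochore −0.31 ± 0.17 and Ckap2l −0.66 ± 0.49 SE as log2 fold changes. Aspm and Ckap2l were each above background on 2 of 3 DIO_CR_WR arrays.

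Brakes and switches of the cycle were measured in 7 inhibitors of cyclin-dependent kinases and 18 E2F, RB and DREAM genes. Of the inhibitors 0 had higher and 1 had lower signal by unadjusted p under 0.05 (against 5.34% and 20.8% of all probes). Cdkn2c, which blocks Cdk4 and Cdk6, had 462%, 525% and 368% in DIO_CR_WR against 635%, 568% and 718% in DIO, without overlap (log2 fold change −0.51 ± 0.20 SE, adjusted p = 0.172 in limma's test), and spike-in scaling gave −0.01. Cdkn1c had −0.39 ± 0.17, Cdkn2d 0.33 ± 0.19 and Cdkn2b 0.16 ± 0.21 SE as log2 fold changes. Among the factors 1 had higher and 1 lower signal (against 5.34% and 20.8% of all probes). E2f5, a repressor E2F, stood at 1.00 ± 0.30 SE on the log2 scale, or 0.34 with slide as a block, and E2f6, another repressor, at −0.62 ± 0.19 SE. E2f7, the partner of E2f8, had 0.47 ± 0.24 SE, and Lin9, a MuvB subunit, −0.47 ± 0.21 SE (0.03 with spike-in scaling).

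Markers of other cell types differed between arrays as well. Of 7 T cell markers tested 5 had higher and 0 lower signal by unadjusted p under 0.05 (against 5.34% and 20.8% of all probes), with 0 past the adjusted threshold, and their score was 1.16, 0.37 and 0.72 on the DIO_CR_WR arrays against −1.14, −1.26 and 0.08 on the DIO arrays. The summed signal of the T cell markers was 112% to 209% in DIO_CR_WR and 56.1% to 127% in DIO. Macrophage markers, 7 of 8 listed, scored 0.36, 0.36 and 0.42 in DIO_CR_WR against −0.48, −0.44 and −0.15 in DIO, with sums of 2907% to 3261% and 2021% to 3731%. NK cell markers, 6 of 6, scored 0.80, 0.54 and 0.73 in DIO_CR_WR and −1.02, −1.02 and −0.24 in DIO.

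Among the DIO arrays, replicate 3 thus had the highest T cell, macrophage and NK cell scores and the highest mitosis score. Among the DIO_CR_WR arrays, replicate 2 had the highest mitosis score and the lowest T cell and NK cell scores. B cell markers, of which 4 of 6 were tested, scored 0.89, −0.02 and 0.04 in DIO_CR_WR and −0.28, −0.51 and 0.03 in DIO. Their summed signal went the other way, at 171% to 190% in DIO_CR_WR and 209% to 276% in DIO. Single B cell markers opposed each other, with log2 fold changes of 1.52 ± 0.42 SE for Cd79b and −0.83 ± 0.21 SE for Cr2. Endothelial markers, 6 of 6, scored 0.23, 0.16 and 0.15 in DIO_CR_WR and −0.17, −0.22 and −0.24 in DIO, and 6 of 6 progenitor markers scored 0.08, −0.12 and −0.17 in DIO_CR_WR and −0.08, 0.08 and 0.06 in DIO. Germinal centre B cell markers, of which 6 of 7 were tested, scored 0.25, −0.07 and 0.05 in DIO_CR_WR and −0.68, −0.10 and 0.21 in DIO. Their summed signal was 480% to 567% in DIO_CR_WR and 683% to 952% in DIO. By unadjusted p under 0.05, 1 of them was higher and 2 were lower (against 5.34% and 20.8% of all probes). The part of these cell types in the values of the cycle genes was not tested.

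**Figure D5:**
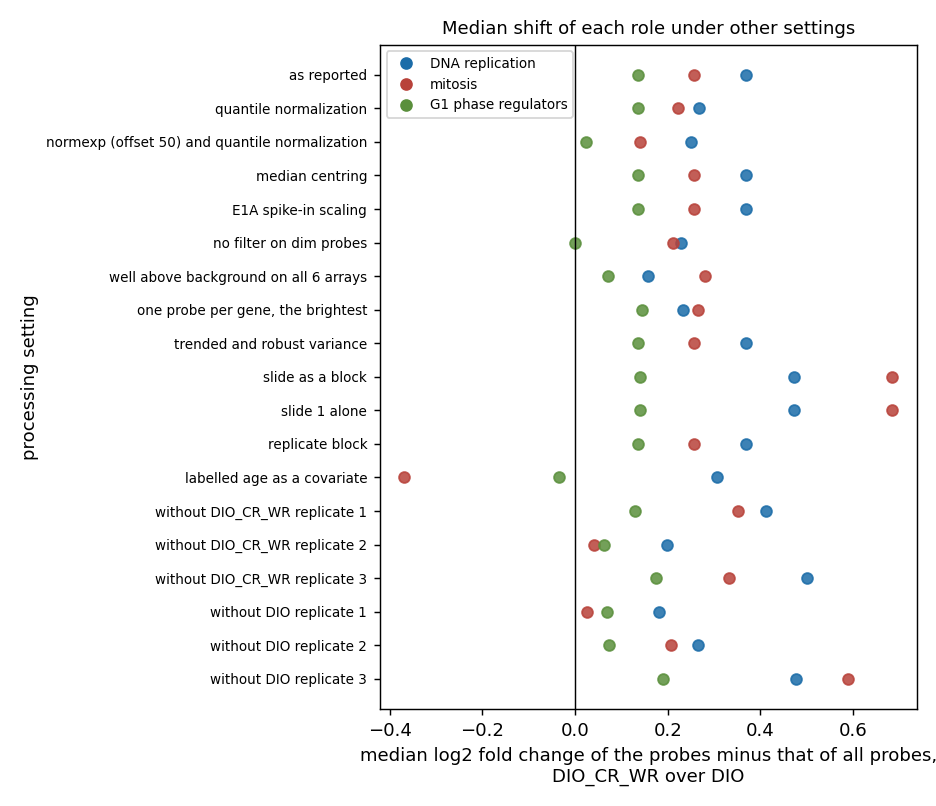
Median log2 fold change of the replication, mitosis and G1 probes minus that of all probes (x axis, DIO_CR_WR over DIO) under each processing setting (y axis), with no test. Mitosis points range from −0.37 with the labelled age as a covariate to 0.68 with slide as a block, and replication points from 0.16 to 0.50.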

How the data were processed

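RNA of 6 samples of inguinal fat was hybridised to 1-colour Agilent arrays of design 028005, 1 array per sample, from 0.5 µg of RNA per the labels. The authors deposited scanner intensities of each spot. Feature Extraction (10.7.3.1 per the file headers, 10.7.1.1 per the submitters' processing notes) had removed background, spatial trend included, and evened out brightness across the array; nothing was normalized between arrays. The deposited files also hold unprocessed intensities and flags of 0 or 1. A deposited table of the whole series was not used, since its columns carry other names than the titles.

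Analysis used R 4.3.3, limma 3.58.1. Control spots (3671 of 62976) were set aside, spots with outlier flags were treated as missing, and spots of a probe were averaged as log2 processed intensity minus the array's 75th percentile. Of 38794 probes above background on at least 3 arrays, 334 with a flagged array were left out. Limma's moderated test (two-sided, checked on simulated data) compared DIO_CR_WR with DIO, with p-values adjusted by Benjamini-Hochberg over 38460 probes and a threshold of 0.05. Median shifts carry no test. Spike-in scaling used 8 of 10 E1A probes. Array slides were read from the files. Members and gene lists were chosen with earlier results of these data known. Values on all arrays are given, per role, for the 3 members with the largest positive and negative fold changes, for 6 fixed members, and for others picked after their values were seen; per further list, the 2 genes of smallest p each way are named, except 1 that is not reported here. All 47 symbols are current in RefSeq's table, and 62 of 63 probe accessions matched it. Alternatives were other scalings, filters, probes, variance models, blocks, age, thresholds and leaving out each array.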

Additional observations from a re-analysis of the deposited data

How the results depend on the processing

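Counts of called members held in most settings: 0 of the member probes passed at an adjusted p under 0.05 with limma in each scaling, filter, variance model and block, with the labelled age as a covariate, and at an adjusted p under 0.1, while 7 passed at an unadjusted p under 0.05. Leaving out 1 array gave 0 to 3 called. The 3, a probe each of Cdk1, Mcm3 and Tpx2, were called without DIO replicate 1, where 5370 of all probes passed and the groups lay on different slides. Over all probes 46 of 27366 passed when all 6 arrays had to be above background, 6 with spike-in scaling and 0 in the other settings with all arrays. Replicate numbers did not pair the arrays: deviations of same-numbered arrays correlated across probes at 0.00, −0.13 and −0.21. The replicate block called 0 members. It cannot move the median shifts of 0.37 (replication), 0.26 (mitosis) and 0.14 (G1), since each replicate number holds 1 array of each group. The mitosis shift moved to 0.68 with slide as a block and on slide 1 alone, and to −0.37 with age as a covariate. The difference of replication minus mitosis moved to −0.21 with slide as a block and on slide 1 alone, and to 0.68 with age. The replication shift was 0.16 with probes above background on all 6 arrays. Without each array in turn, shifts ran from 0.18 to 0.50 for replication, 0.03 to 0.59 for mitosis and 0.06 to 0.19 for G1, and the difference from −0.11 to 0.17. Rrm1 changed sign to 0.15 with spike-in scaling. The cause of these changes was not tested. Over the 18 alternatives the brightest probe of Mki67 changed sign in 7 and that of Cdk1 in 0. Filters, variance models, 1 probe per gene and the replicate block cannot change the fold change of a single probe. Median and spike-in scaling cannot turn a positive fold change negative. Slide as a block and slide 1 alone give the same value. The third Cdk1 probe had a log2 fold change of −0.42 with all arrays. Signals near the background on the DIO_CR_WR arrays, as for Ccne2, Tyms and 1 Tpx2 probe, and 3 arrays per group limit every value.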
